A study of Mus musculus with 11 samples.

Results

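The interferon-induced antiviral effectors described here are 10 genes, Isg15, Usp18, Irf7, Ifit1, Ifit3, Oas2, Oas3, Oasl2, Mx1 and Rsad2. They were taken by gene symbol from the 49315 genes of the count table, and each of the 10 symbols matched 1 gene. Whole skin of 11 neonatal mice had been profiled by bulk RNA-sequencing to ask how loss of regulatory T cells (Tregs) in different windows after birth changes the skin. All mice were Foxp3-DTR, on the C57BL/6J background that the study states for its mice. Their Foxp3+ cells carry the diphtheria toxin receptor and are killed by diphtheria toxin (DT). Depletion therefore reached Tregs of the whole body and was not limited to skin. Control mice (n = 2) received PBS. ΔETreg mice (EarlyDT, n = 3) received DT at 30 ng/g on postnatal days 6 and 8 and were harvested on day 9. ΔLTreg mice (LateDT, n = 3) received it on days 10 and 12, and ΔTreg mice (FullDT, n = 3) on days 6, 8, 10 and 12, and both groups were harvested on day 13. The labels give no harvest day for the control mice, while the study's scheme has harvests on day 9 or day 13, so age cannot be told apart from treatment in any comparison of ΔETreg with ΔLTreg or ΔTreg. The study describes its control and depleted skin as matched for age, but which of the 2 control mice was harvested on which day was not given in the labels. Both control mice therefore entered every comparison with the controls, and age was not separated from treatment there. Every mouse carried the same batch label.

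These genes belong to the response that a cell mounts when interferon binds its receptor. Type I and type III interferons activate a transcription factor complex that contains IRF9 and binds the interferon-stimulated response element (ISRE) in promoters, whereas interferon-γ acts mainly at the gamma-activated sequence (GAS). ISG15 is a ubiquitin-like protein joined to other proteins, and USP18 removes it and also dampens signalling at the type I interferon receptor. IRF7 is the transcription factor that amplifies type I interferon production. IFIT proteins bind foreign RNA, and OAS enzymes make the oligoadenylates that activate RNase L. The MX1 GTPase blocks virus replication, although many laboratory strains carry a truncated form of its gene. C57BL/6, the background of these mice, is among them, so Mx1 is read here as a transcript only. RSAD2 (viperin) makes a nucleotide that stops viral RNA chains. OASL2 is an OAS-like protein.

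The promoters of the genes show the element these genes are known for. RefSeq promoter sequences (build GRCm38.p6, from 250 bases before to 50 after the start of the gene) matched 7 of the 10 genes, Ifit1, Ifit3, Irf7, Isg15, Oas3, Oasl2 and Rsad2, and the sequences of Mx1, Oas2 and Usp18 were not matched. The core of the ISRE, GAAANNGAAA searched on both strands, was present in 5 of these 7 promoters and in 3.99% of the 27025 genes with a promoter in the table. The 160 bases before the start are printed for these 5, 5′ to 3′ on the strand of the gene, with each match in capitals. They are shown because they hold the ISRE core.
Ifit1 (chr19:34640729-34640888, plus strand): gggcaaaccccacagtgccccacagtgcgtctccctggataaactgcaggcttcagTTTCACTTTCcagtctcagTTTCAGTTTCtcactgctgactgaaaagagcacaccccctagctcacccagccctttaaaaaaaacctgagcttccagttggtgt
Ifit3 (chr19:34583369-34583528, plus strand): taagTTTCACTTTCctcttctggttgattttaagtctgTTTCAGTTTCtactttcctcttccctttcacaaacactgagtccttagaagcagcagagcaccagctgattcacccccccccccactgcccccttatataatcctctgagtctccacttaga
Isg15 (chr4:156200819-156200978, minus strand): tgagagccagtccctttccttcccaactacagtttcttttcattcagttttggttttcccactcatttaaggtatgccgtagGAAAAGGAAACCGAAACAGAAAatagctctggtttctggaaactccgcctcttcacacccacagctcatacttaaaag
Oas3 (chr5:120777660-120777819, minus strand): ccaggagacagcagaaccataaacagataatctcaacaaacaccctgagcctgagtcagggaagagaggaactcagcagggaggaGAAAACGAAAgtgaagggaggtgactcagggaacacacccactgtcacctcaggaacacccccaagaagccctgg
Rsad2 (chr12:26456453-26456612, minus strand): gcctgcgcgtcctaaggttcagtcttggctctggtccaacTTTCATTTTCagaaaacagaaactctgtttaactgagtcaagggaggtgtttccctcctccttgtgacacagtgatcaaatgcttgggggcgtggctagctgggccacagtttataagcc
Ifit1 and Ifit3 each held 2 matches, and the same pair of sequences, TTTCACTTTC and TTTCAGTTTC, occurred in both. These began 104 and 85 bases before the start in Ifit1 and 156 and 122 bases before it in Ifit3. The 3 matches of Isg15 overlapped one another, beginning 78, 72 and 66 bases before the start. Oas3 held 1 match, 75 bases before the start, and Rsad2 held 1, 120 bases before it. The letters of the ISRE core were not in the windows of Irf7 and Oasl2. The GAS, TTCNNNGAA, was in 0 of the 7 promoters and in 9.55% of all genes with a promoter. A match is a run of letters and not a measured binding site.

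In the GRCm38 gene models of the GENCODE M21 annotation, Ifit1 (ENSMUSG00000034459) and Ifit3 (ENSMUSG00000074896) lie on chromosome 19, and Oas2, Oas3 and Oasl2 lie on chromosome 5. Oas2 and Oas3 are neighbours there, at positions 120730333 to 120749853 and 120753098 to 120777661. Irf7 lies on chromosome 7, Isg15 on chromosome 4, Mx1 on chromosome 16, Rsad2 on chromosome 12 and Usp18 on chromosome 6. Of the 100-base windows of the longest Ifit3 transcript, 31.7% were identical in a transcript of Ifit3b. Only unique reads were counted, so reads from this part may be missing, and the counts of Ifit3 are uncertain. The shared part was 3.29% for Ifit1 (with Ifit1bl2), 1.25% for Mx1 (with Mx2) and 0 for the other 7 genes. Exons of Irf7 overlap those of Phrf1 over 45 bases and exons of Usp18 those of Gm44148 over 124 bases, on the opposite strand in both cases.

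The libraries held 23377571 to 34159435 counts, and 18375 genes passed the filter on low counts, all 10 effectors among them. Keratinocyte, fibroblast and melanocyte markers were present in every library, as the label of skin requires. Foxp3 gave 9 to 23 counts per library and was not called in any treated group against the controls. So few counts in whole skin do not measure depletion. The study reported efficient depletion in skin by flow cytometry for the ΔETreg and ΔLTreg schedules. Counts of Xist and of the Y-linked Ddx3y separated 6 female from 5 male mice, namely control mouse 1, ΔETreg mouse 1, ΔLTreg mice 1 and 2 and ΔTreg mice 1 and 2, which were female, and control mouse 2, ΔETreg mice 2 and 3, ΔLTreg mouse 3 and ΔTreg mouse 3, which were male. Nothing in the labels says whether mice shared a litter, and p-values measure the spread between these mice.

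All 10 effectors were higher in ΔTreg skin than in control skin, and every ΔTreg mouse lay above every one of the other 8 mice for each of them. In the quasi-likelihood test of edgeR, adjusted by Benjamini-Hochberg over all genes, 10 of 10 rose, against 12.1% of all genes tested that were called higher in this comparison. The share of all genes whose 3 ΔTreg mice lay above the other 8 was 12.9%. The log2 fold changes ran from 1.75 for Rsad2 to 3.41 for Oasl2 with a median of 2.67, beside a median of -0.00585 over all genes. Levels below are in CPM, the counts of a gene as a share of its library, scaled between libraries by the trimmed mean of M-values (TMM), and are listed by mouse number.

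**Figure D1:**
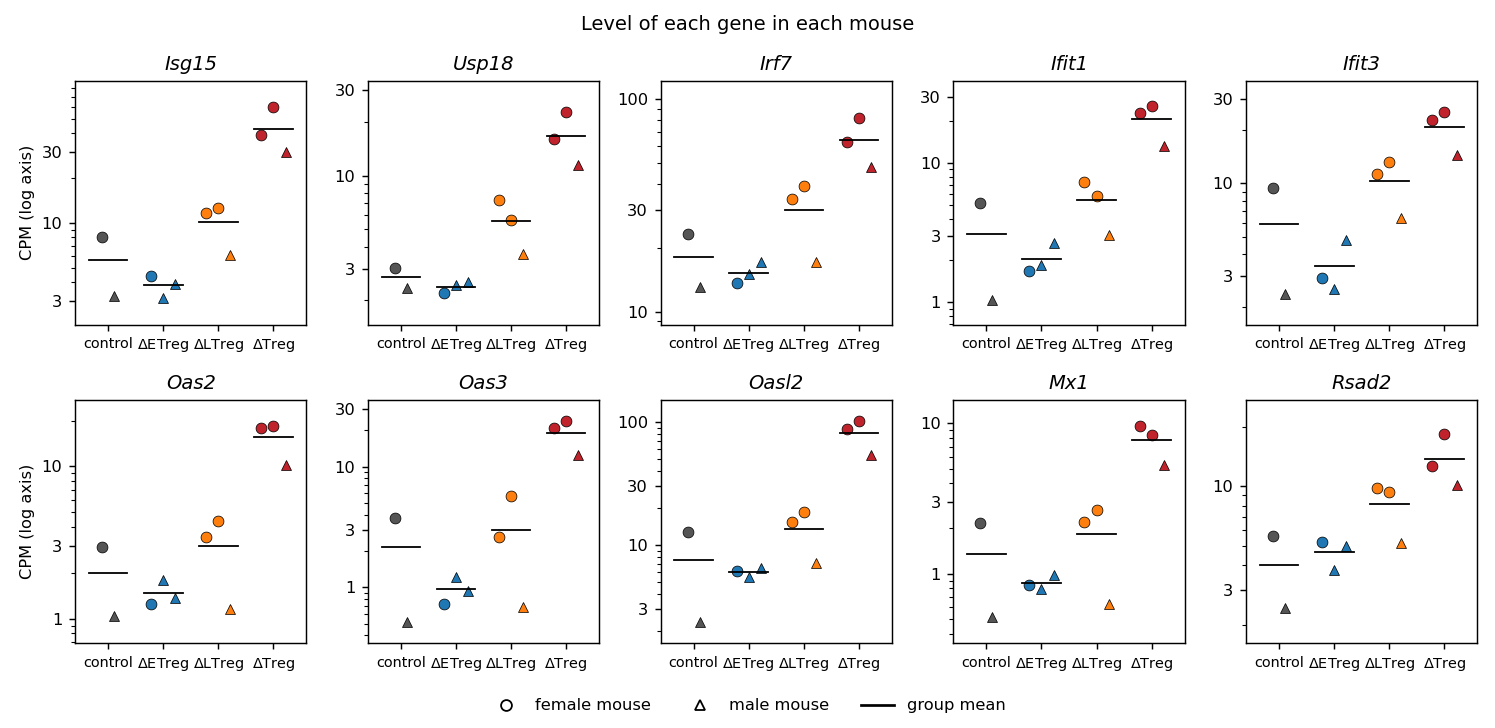
Each panel shows 1 gene, with CPM on a log axis, 1 point per mouse in the 4 groups (circles female, triangles male) and a line at the group mean. The 3 ΔTreg mice lie above all others in every panel, and control mouse 1 (female) lies above control mouse 2 (male) in every panel.

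Isg15 and Usp18, the 2 genes of the ISG15 system, had the smallest adjusted p values of the 10. Isg15 was at 8.09 and 3.27 CPM in the controls, 4.42, 3.12 and 3.899 in the ΔETreg mice and 11.7, 12.5 and 6.07 in the ΔLTreg mice, and reached 39.2, 59.7 and 29.8 in the ΔTreg mice. The rise in ΔTreg skin was 2.90 ± 0.43 on the log2 scale (standard error; adjusted p = 0.000745). Usp18, which removes ISG15, was at 3.05 and 2.35 CPM in the controls, 2.19, 2.43 and 2.53 in the ΔETreg mice and 7.30, 5.65 and 3.66 in the ΔLTreg mice, and reached 15.95, 22.6 and 11.4 in the ΔTreg mice. Its control mice were the closest pair of the 10 genes, and it rose by 2.62 ± 0.33 on the log2 scale (adjusted p = 0.000301). Irf7 was at 23.2 and 13.03 CPM in the controls, 13.6, 15.0 and 17.2 in the ΔETreg mice and 33.97, 38.9 and 17.1 in the ΔLTreg mice, and reached 62.6, 81.2 and 48.2 in the ΔTreg mice. This transcription factor rose by 1.82 ± 0.35 on the log2 scale (adjusted p = 0.00378), which was 3.52-fold.

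The RNA-binding Ifit1 was at 5.15 and 1.04 CPM in the controls, 1.67, 1.84 and 2.66 in the ΔETreg mice and 7.27, 5.84 and 3.07 in the ΔLTreg mice, and reached 23.1, 25.9 and 13.3 in the ΔTreg mice. It rose 6.59-fold in ΔTreg skin (log2 2.72 ± 0.54, adjusted p = 0.00462). Ifit3 was at 9.42 and 2.39 CPM in the controls and 22.98, 25.3 and 14.5 in ΔTreg mice. Its rise of 3.50-fold had the largest adjusted p of the 10 genes (0.0238).

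Oasl2, Oas3 and Oas2 had the 3 largest fitted log2 changes, but the order of the genes was not firm. Oas2 (2.94 ± 0.52) and Isg15 (2.90 ± 0.43) did not differ beyond their standard errors. Without control mouse 1 Ifit1 (4.32) was above Oas2 (3.89), and without control mouse 2 Usp18 (2.45) and Isg15 (2.41) were above Oas2 (2.39) and Oas3 (2.34). Oasl2 was at 12.7 and 2.39 CPM in the controls, 6.13, 5.49 and 6.47 in the ΔETreg mice and 15.3, 18.5 and 7.11 in the ΔLTreg mice, and reached 87.9, 101.7 and 53.6 in the ΔTreg mice. This was a 10.6-fold difference from the controls (log2 3.41 ± 0.57, adjusted p = 0.00164). Oas3 was at 3.78 and 0.518 CPM in the controls, 0.731, 1.22 and 0.943 in the ΔETreg mice and 2.62, 5.69 and 0.689 in the ΔLTreg mice, and reached 20.8, 24.0 and 12.6 in the ΔTreg mice. On the log scale it had the widest spread between mice outside the ΔTreg group, and its 8.68-fold rise had a standard error of 0.74 on the log2 scale (adjusted p = 0.0126). Oas2 rose 7.65-fold (adjusted p = 0.00237), from 2.94 and 1.04 CPM in the controls to 18.0, 18.3 and 10.2 in ΔTreg mice. Mx1 was at 9.60, 8.40 and 5.32 CPM in ΔTreg mice against 2.17 and 0.518 in the controls (5.63-fold, adjusted p = 0.00921). Rsad2 changed least, from 5.64 and 2.43 CPM in the controls to 12.7, 18.3 and 10.2 in ΔTreg mice (3.37-fold, adjusted p = 0.00759). Its ΔTreg mouse 3 lay just above ΔLTreg mouse 1, at 9.83 CPM.

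The controls limit how firmly these rises can be stated. Without control mouse 2, 5 of the 10 genes were called (Isg15, Usp18, Ifit1, Oas2 and Oasl2), with log2 changes of 1.15 to 2.68 over the 10, and without control mouse 1 all 10 were called, with changes of 2.29 to 5.19. Several leukocyte marker sums were higher in ΔTreg skin too, but not all. Plasmacytoid dendritic cell markers summed to 119 to 128 CPM in ΔTreg mice against 122 to 125 in the controls. This sum does not show how its single markers moved. Of the 4 that were tested, 1 was called higher in ΔTreg skin, with log2 changes from -0.05 to 1.19. B cell markers summed to 0.564 to 0.927 CPM against 0.359 to 0.595. This sum is near the floor and says little: 2 of its 4 markers passed the filter, with log2 changes of 0.06 and 0.71 and 0 called. The 3 NK cell markers summed to 1.17 to 1.37 CPM in ΔTreg mice against 0.140 to 0.159 in the controls. Within the ΔTreg group the order of mice depended on the marker list. Mouse 2 had the highest mean log2 CPM of the effectors (4.88). It had the lowest sums of pan-leukocyte, T cell, neutrophil, and macrophage and monocyte markers, but the highest NK cell sum. The summed level of the 3 pan-leukocyte markers was 156 to 215 CPM in ΔTreg mice against 49.995 to 66.9 in the controls, and the ΔETreg mice (42.5 to 52.7) and ΔLTreg mice (34.9 to 75.9) were near the controls. The 5 T cell markers summed to 40.6 to 49.1 CPM in ΔTreg mice against 10.3 to 12.5 in the controls, with 10.1 to 12.9 in the ΔETreg and 12.6 to 15.4 in the ΔLTreg mice, and the 5 neutrophil markers to 32.1 to 39.5 CPM against 13.2 to 14.0, 8.81 to 11.7 and 17.0 to 18.2. The 5 macrophage and monocyte markers summed to 143 to 193 CPM in ΔTreg mice against 71.7 to 97.2 in the controls, with 53.0 to 80.1 in the ΔETreg and 36.9 to 102.0 in the ΔLTreg mice. Some marker sums of other cells were lower in ΔTreg mice than in the controls. The 5 fibroblast markers summed to 6649 to 7443 CPM against 13038 to 14915, the 5 melanocyte markers to 685 to 715 CPM against 1139 to 1352 and the 5 erythroid markers to 138 to 178 CPM against 249 to 265. In bulk skin, fewer cells of a type and less RNA per cell cannot be told apart, and the part of any of these cells in the rise was not tested.

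**Figure D2:**
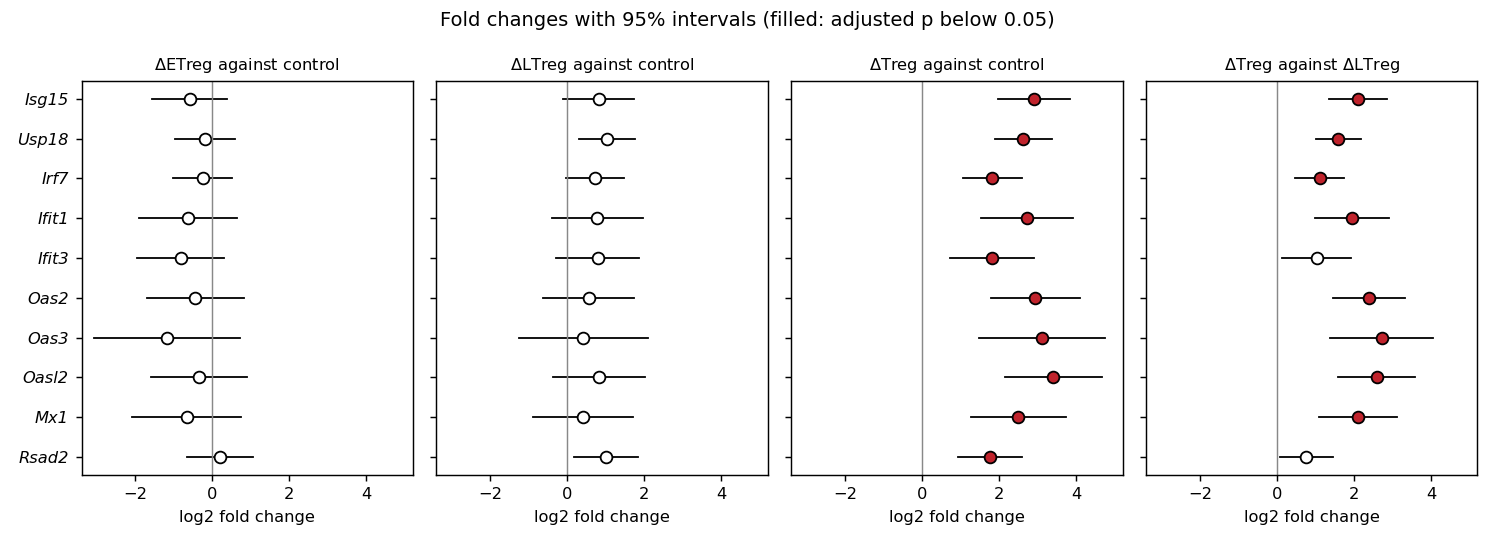
Points are fitted log2 fold changes of the 10 genes in 4 comparisons, with 95% intervals, and filled points passed an adjusted p of 0.05. No gene passed in ΔETreg or ΔLTreg against control, all 10 passed in ΔTreg against control and 8 in ΔTreg against ΔLTreg.

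In ΔLTreg skin all 10 log2 changes against control were positive, from 0.40 for Mx1 to 1.03 for Usp18 with a median of 0.78, and 0 of 10 passed the test, beside 1.86% of all genes called higher. At an unadjusted p under 0.05 there were 2 genes, Usp18 (adjusted p = 0.110) and Rsad2 (log2 1.00 ± 0.38, adjusted p = 0.166), and these 2 passed with DESeq2. Of the 18375 genes tested, 3715 were at an unadjusted p under 0.05, so 2 of 10 was no more than the share over all genes. Usp18 was the 1 gene whose ΔLTreg mice all lay above both controls, and the share of all genes in this order was not counted. With no filter beyond 1 count, 7 of the 10 were called, all but Mx1, Oas2 and Oas3. Calls over all genes, higher or lower, went from 836 to 1790 under that setting. The 3 ΔLTreg mice were not alike. Mouse 3 lay below mice 1 and 2 for all 10 genes, and for Oas3 it was at 0.689 CPM, below control mouse 1 and the ΔETreg mean of 0.963. This mouse was the male of the group, and its marker sums differed too. Fibroblast markers summed to 6200 CPM in it against 11836 and 13409 in mice 1 and 2. Skeletal muscle markers summed to 3697 against 2833 and 1143, and pan-leukocyte markers to 34.9 against 57.0 and 75.9. Keratinocyte markers were closer, at 9339 against 10404 and 9938. The part of tissue content was not tested.

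In ΔETreg skin 0 of 10 effectors passed the test against control, with 0 at an unadjusted p under 0.05 and 0 with DESeq2. Of all genes, 0.00544% were called higher. The log2 changes were negative for 9 genes and positive for Rsad2, with a median of -0.52, and ΔETreg and control mice overlapped for every gene. The intervals were wide. That of Oas3 ran from -3.07 to 0.71 and that of Usp18, the second narrowest, from -0.96 to 0.59. The sign rested on which control mouse was used: without control mouse 1 all 10 changes were positive (0.02 to 1.33) and without control mouse 2 all 10 were negative (-1.96 to -0.27), none of them past the threshold.

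Set against ΔLTreg skin of the same age, ΔTreg skin was higher for all 10 genes, and 8 passed the test beside 10.7% of all genes. The largest differences were those of Oas3 (log2 2.71 ± 0.61, adjusted p = 0.0110), Oasl2 (2.58 ± 0.46, adjusted p = 0.00277) and Oas2 (2.38 ± 0.42, adjusted p = 0.00281). Ifit3 (1.02 ± 0.41, adjusted p = 0.115) and Rsad2 (0.75 ± 0.31, adjusted p = 0.127) did not pass. Both groups were harvested on day 13 and held 2 females and 1 male. Against ΔETreg skin, harvested earlier and from 1 female and 2 males, all 10 effectors were called higher in ΔTreg skin beside 13.2% of all genes. The log2 differences ran from 1.56 for Rsad2 to 4.30 for Oas3.

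ΔETreg skin lay below ΔLTreg skin for all 10 genes, with log2 differences from -1.61 for Ifit3 to -0.80 for Rsad2. Usp18 alone passed the test (-1.22 ± 0.30, adjusted p = 0.0362), beside 3.12% of all genes called lower. The ranges did not overlap for 5 genes, Isg15, Usp18, Ifit1, Ifit3 and Oasl2, as they did not for 13.7% of all genes. The count of calls was unstable, from 0 to 4 when single mice were left out. Toxin schedule and age differ together here and cannot be told apart. The sexes differed as well, with 1 female and 2 males in the ΔETreg group and 2 females and 1 male in the ΔLTreg group. With sex as a covariate 2 genes were called.

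The departure from additivity asks whether ΔTreg skin differed from the sum, on the log2 scale, of the ΔETreg and ΔLTreg changes. All 10 departures were positive, from 0.56 for Rsad2 to 3.89 for Oas3, with a median of 2.63 beside -0.00414 over all genes. The test called 4 genes, Isg15 (2.68 ± 0.56, adjusted p = 0.0180), Oasl2 (2.92 ± 0.72, adjusted p = 0.0393), Usp18 (1.77 ± 0.44, adjusted p = 0.0409) and Oas2 (2.82 ± 0.71, adjusted p = 0.0435), beside 4.65% of all genes. None was called without control mouse 1 (adjusted p from 0.187 to 0.917), 1 was called without any single ΔETreg mouse or without ΔTreg mouse 1 or 2, 2 were called without ΔLTreg mouse 1 and 7 without control mouse 2. The ages of the groups enter this sum and were not separated from the effect of repeated toxin, and the share of females also differed between groups.

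The 2 control mice stood apart from each other in these genes. Mouse 1 was above mouse 2 for all 10 genes and by more than 2-fold for 8 of them, whereas 3.76% of the 18271 genes counted in both mice were that much higher. With 1 mouse against 1 mouse there is no test, and the intervals cover counting error only. Oas3 had 108 counts in mouse 1 and 13 in mouse 2, a ratio in CPM of 7.30 (95% interval 4.10 to 14.2). Oasl2 had 362 and 60 counts (ratio 5.30), and Ifit1 147 and 26 (ratio 4.97). The ratio was 4.19 for Mx1, 3.94 for Ifit3, 2.84 for Oas2, 2.48 for Isg15 and 2.32 for Rsad2. The differences of these 8 genes exceeded counting error. Irf7 differed less, with 662 and 327 counts and a ratio of 1.78 (1.56 to 2.04), and the ratio of Usp18, 1.30 (0.921 to 1.84), could not be told from 1 at this depth.

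**Figure D3:**
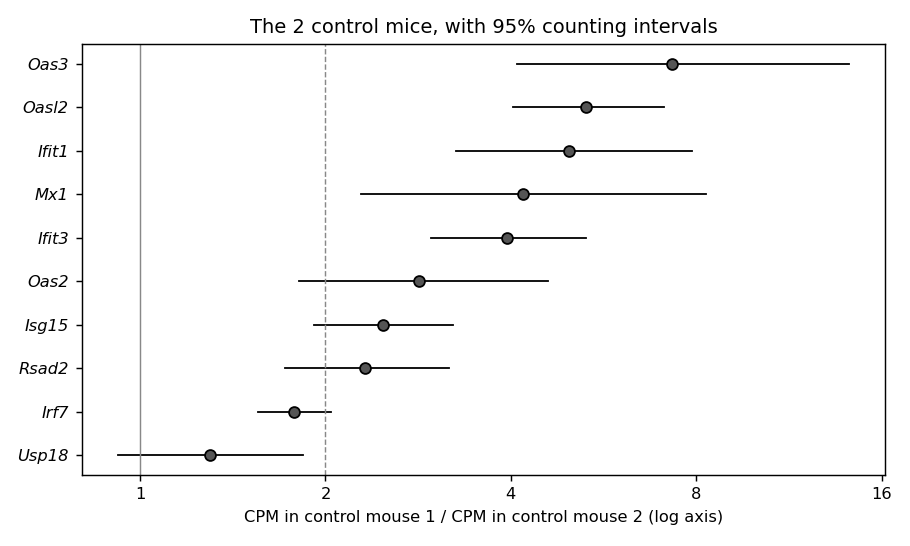
Points give the ratio of CPM in control mouse 1 to that in control mouse 2 for each gene on a log axis, with 95% counting intervals and lines at ratios of 1 and 2. The ratio lies above 2 for 8 genes, and the interval of Usp18 spans 1.

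The median log2 ratio over the 10 effectors was 1.74 between the control mice, beside 0.0110 over all genes. Between pairs of ΔETreg mice it was between -0.28 and -0.03, between ΔTreg mice 1 and 3 it was 0.69 and between ΔTreg mice 2 and 3 it was 0.89. The nearest to the control pair were ΔLTreg mice 1 and 3 (1.05) and 2 and 3 (1.12). Control mouse 1 lay above all ΔETreg mice for 10 of 10 genes, a place held by 27.5% of all genes, and within the range of the ΔLTreg mice for 9, as did 41.3% of all genes. Control mouse 2 lay below all ΔETreg mice for 8 genes, as did 28.1% of all genes, and below all ΔLTreg mice for 10, as did 28.5%. Both control mice were below every ΔTreg mouse for all 10 genes. The control mice also differed outside the effectors. Of all genes, 5.34% were over 2-fold apart in either direction, beside 3.94% to 4.18% in the ΔETreg pairs, 5.78% to 7.07% in the ΔLTreg pairs and 3.08% to 3.67% in the ΔTreg pairs. Adipocyte markers summed to 11.3 CPM in mouse 1 and 25.8 CPM in mouse 2, and macrophage and monocyte markers to 97.2 and 71.7 CPM. Their T cell markers summed to 10.3 and 12.5 CPM, their neutrophil markers to 13.2 and 14.0 CPM and their plasmacytoid dendritic cell markers to 125 and 122 CPM, while the pan-leukocyte markers summed to 66.9 and 49.995 CPM. Siglech, the most specific of the plasmacytoid markers, had 5 and 3 counts. Mouse 1 was female and mouse 2 male, and sex, an age not given by the labels and the individual mouse cannot be told apart in this pair.

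Sex was looked at after these values had been seen. In the control, ΔLTreg and ΔTreg groups every female lay above the male for all 10 effectors. Over all genes this held for 52.1% in the controls, 40.9% in ΔLTreg and 33.0% in ΔTreg mice. The median log2 ratio of the female mean to the male was 1.74 in controls, 1.09 in ΔLTreg and 0.76 in ΔTreg mice. The ΔETreg group did not share this order: the female lay above both males for 2 genes and below both for 5, with a median of -0.21. In a fit with a term for sex across all 11 mice, the female-to-male log2 difference ran from 0.52 for Usp18 to 1.23 for Oas3, and 0 of 10 passed after adjustment over all genes, with adjusted p from 0.412 for Isg15 to 0.946. All 10 had an unadjusted p under 0.05, as did 5.04% of all genes, and 0.0218% of all genes were called higher in females. Over the 8 mice outside the ΔETreg group the differences were 0.71 to 1.55, again with 0 of 10 passing (adjusted p from 0.185 to 0.492). Of all genes, 0.0109% were called higher in females there. Each group held 1 mouse of one sex, so a difference of sex and a difference of single mice cannot be told apart within a group.

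Levels between genes were compared per length, in RPKM, which is CPM divided by the length in kilobases of all annotated exons merged. This length was 6374 bases for Oasl2 and 7069 for Oas3, beside longest transcripts of 3123 and 4720 bases. For Irf7 the lengths were 3776 and 3240 bases, and for Isg15 both were 756. The order of genes below rests on the merged length and was not tested with another. Isg15 was the highest of the 10 in every group, at 7.51 ± 4.51 RPKM in control (SD, n = 2), 5.05 ± 0.87 in ΔETreg skin, 13.4 ± 4.65 in ΔLTreg skin and 56.7 ± 20.2 in ΔTreg skin (n = 3 each). Irf7 came next in each group, at 4.79 ± 1.90 in control and 17.0 ± 4.38 RPKM in ΔTreg skin, and in the controls these 2 genes did not differ beyond their spread. Ifit3 was the third in control, ΔETreg and ΔLTreg skin. In ΔTreg skin Oasl2 (12.7 ± 3.88 RPKM) stood beside Ifit3 (11.99 ± 3.25), and these neighbours did not differ beyond their spread either. Oas3 and Mx1 were the lowest in all 4 groups, at 2.71 ± 0.84 and 2.05 ± 0.58 RPKM in ΔTreg skin.

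The rest of the pathway was followed through gene lists, and their counts are descriptions. The interferons themselves were hardly seen. Of 10 interferon genes only Ifng passed the filter on low counts, and Ifnb1, Ifna1, Ifna2, Ifna4, Ifna5, Ifne, Ifnk, Ifnl2 and Ifnl3 had at most 2 counts in any library, which says little at this depth. Ifng, the product of activated T and NK cells, had 3 and 0 counts in the controls, 3, 0 and 0 in the ΔETreg mice and 1, 4 and 0 in the ΔLTreg mice, and reached 54, 82 and 57 in the ΔTreg mice. All 3 ΔTreg mice stood apart from the other 8, and Ifng passed the test against control (adjusted p = 0.000769). The NK cell marker Ncr1 also set the ΔTreg mice apart, with 13, 12 and 16 counts in them and at most 3 in the others. Within the ΔTreg group its order of mice was not that of Ifng.

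Receptor, sensor and feedback genes had smaller list medians than the effectors. For comparison, 12.1% of all genes tested were called higher in ΔTreg against control skin. Of 6 interferon receptor genes, 3 rose in ΔTreg against control skin, with a list median of 0.32. Ifngr1 (log2 0.76, adjusted p = 0.000145) and Ifngr2 (0.38, adjusted p = 0.000908), the chains of the interferon-γ receptor, had the smallest p, and the type III receptor chain Ifnlr1 had the largest (0.06, adjusted p = 0.727). Among signalling genes Stat2 rose by 2.12 on the log2 scale (adjusted p = 1.41e-05), whereas the kinase Tyk2 was at 0.26 (adjusted p = 0.0541). Of 15 nucleic acid sensors and their adaptors, 10 rose (median 0.68), among them the RNA sensor Ifih1 (1.86) and Tmem173, which encodes STING (2.14), whereas Mavs was at -0.01. Of 4 feedback inhibitors tested, 2 rose (median 0.76), Socs1 (2.10) and Socs3 (1.41), and Pias1 was at 0.08.

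Genes of the same families and functions were higher in ΔTreg skin too, beside 12.1% of all genes called higher there. Of 10 further Ifit, Oas and Mx family genes, 7 rose in ΔTreg against control skin, led by Oas1g (log2 4.13, adjusted p = 0.00113) and Oas1b (2.44, adjusted p = 0.00203), whereas Ifit1bl1 was at 0.76 (adjusted p = 0.440). All 3 ISG15 conjugation genes rose, namely Uba7, the activating enzyme (2.53), Ube2l6, the conjugating enzyme (1.71), and the ligase Herc6 (2.56). All 24 other antiviral genes rose, from 1.00 for Cmpk2 to 3.82, with Dtx3l (2.41) and Parp9 (2.37), which work as a pair, having the smallest p. All 16 genes listed as responding mainly to interferon-γ rose too, from 1.56 for Ciita, the regulator of MHC class II, to 8.30. Their median of 3.59 stood beside 2.67 for the 10 effectors. The list does not set the 2 responses cleanly apart: of its 13 genes with a matched promoter, 6 held the ISRE core and 5 the GAS.

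Of the pathway-list genes called higher in ΔLTreg than in control skin, most were on the list of interferon-γ-responsive genes. Over all genes, 1.86% were called higher there. Of the 16 interferon-γ-responsive genes 9 rose against control there, with a list median of 1.202, beside 0 of 10 effectors with a median of 0.78. They were the GTPases Gbp3, Gbp5, Irgm1 and Igtp, the transcription factor Irf1, the antigen-processing genes Tap1, Psmb8 and Psmb9, and Cd274, which encodes PD-L1. Gbp5 rose by 2.43 on the log2 scale (adjusted p = 0.00141) and Psmb9 by 1.26 (adjusted p = 0.00216). Ifih1 (0.62, adjusted p = 0.0269) and Ifi27 (0.62, adjusted p = 0.0377) rose as well, and Ifitm1, which restricts virus entry, fell by 1.31 (adjusted p = 0.0135). A difference between the lists was not tested. Against control, ΔETreg skin had 0 calls in each of these lists, and 2 interferon-γ-responsive genes were at an unadjusted p under 0.05. So were 872 of the 18375 genes tested.

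**Figure D4:**
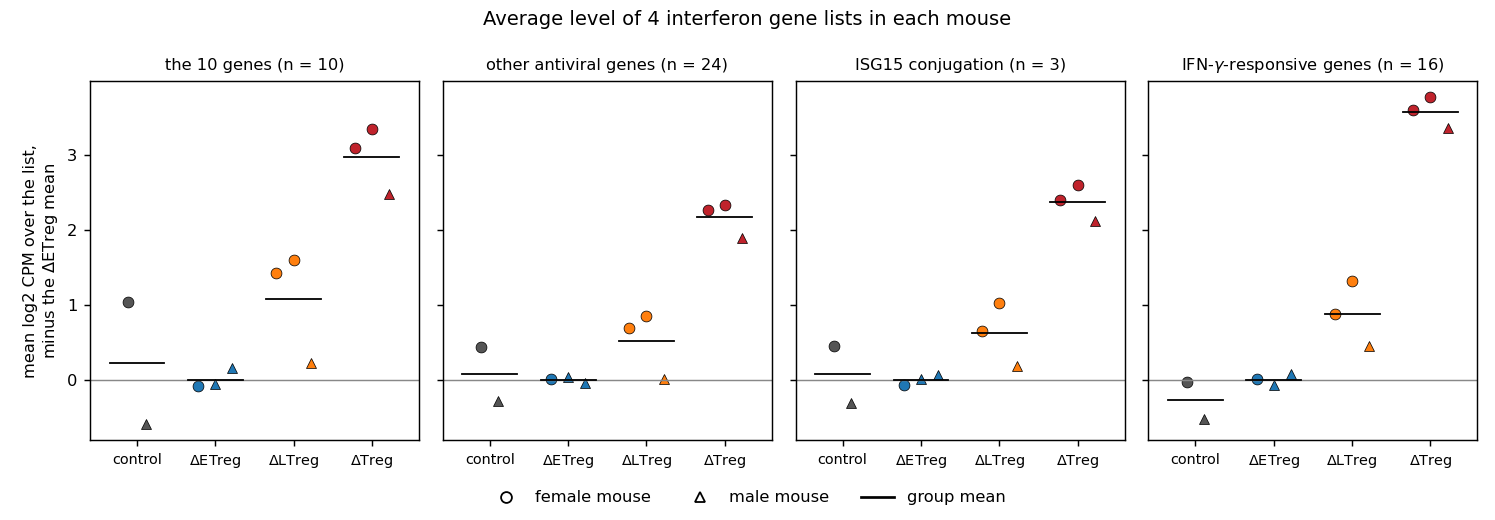
Points are the mean log2 CPM over a list in each mouse (circles female, triangles male), less the ΔETreg mean of that list, for the 10 effectors, 24 other antiviral genes, 3 ISG15 conjugation genes and 16 interferon-γ-responsive genes, with lines at group means. The ΔTreg mice are the highest in each panel, and the controls are the most widely spaced for the 10 effectors.

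The difference between the control mice extended to related lists. As a background, 3.76% of all genes counted in both mice were more than 2-fold higher in mouse 1. Mouse 1 was above mouse 2 by more than 2-fold for 7 of the 10 further family genes (median log2 1.77), for 7 of the 24 other antiviral genes (0.59), for 1 of the 3 ISG15 conjugation genes (0.72) and for 3 of the 15 interferon-γ-responsive genes counted in both (0.56). The medians of the receptor genes (0.01) and the feedback inhibitors (0.14) were smaller, and 0 genes of these 2 lists passed 2-fold.

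The 10 effectors moved together from mouse to mouse. The correlation of the log2 CPM of each gene with the mean of the other 9 was 0.941 for Rsad2 to 0.990 for Oasl2 over the 11 mice, and 0.841 for Usp18 to 0.973 for Irf7 over the 8 mice outside the ΔTreg group. These are descriptions over mice that share group means. The genes outside the set whose pattern was most like the mean of the 10 were Bst2 (Pearson r 0.995), Phf11d (0.995), Oas1a (0.994), Ifit2 (0.991) and Trim34a (0.991) over 11 mice. Over the 8 mice outside the ΔTreg group they were Phf11d (0.987), Trim30a (0.984), Bst2 (0.982), Zfp979 (0.981) and Zbp1 (0.980). Bst2 encodes tetherin, which holds virus particles at the cell surface, and Zbp1 encodes a sensor of Z-form nucleic acids. Bst2 and Phf11d were among the 5 most alike in both sets of mice.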

How the data were processed

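Read counts per gene were used as deposited by the authors for 11 whole-skin libraries. Per the study's methods and the submitters' processing notes, the authors used Trimmomatic 0.36 for trimming, STAR 2.5.2b for alignment to GRCm38 and counted unique reads in exons with featureCounts of Subread 1.5.2. The annotation version and the strand setting were not given in the sources used here. Groups came from the treatment labels.

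Counts were filtered with filterByExpr, scaled by TMM and fitted with edgeR 4.0.16 (quasi-likelihood test, R 4.3.3), with a mean per group over all 11 libraries and Benjamini-Hochberg adjustment over 18375 genes. A gene was called at an adjusted p under 0.05. Log2 CPM used a prior count of 2. Exon lengths were those of the merged exons of each gene in GENCODE M21. The steps were tested on simulated data. Tables and figures were made with Python 3.11.15. DESeq2 1.42.0, other scalings and filters, a sex covariate, the libraries of each pair of groups alone and leaving out each mouse were alternatives. The term for sex was tried after seeing the data.

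The 10 effectors and all lists were chosen with earlier results of these data known. Besides the 10, the text names the 2 genes with the smallest and the 1 with the largest p per list in ΔTreg against control, list genes called in ΔETreg or ΔLTreg against control, and the 5 genes most correlated with the mean of the 10. The library totals of 23377571 to 34159435 counts set the precision. Counting intervals are exact 95% binomial intervals and cover counting error only. The list of signalling genes is given in part, and 1 of its genes is not reported here.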

Additional observations from a re-analysis of the deposited data

Results flagged for a closer look

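The departure from additivity differed from 0 by its own test for 4 of the 10 effectors. The ΔTreg change exceeded the sum of the ΔETreg and ΔLTreg changes by 2.68 on the log2 scale for Isg15, 2.82 for Oas2, 2.92 for Oasl2 and 1.77 for Usp18, each past an adjusted p of 0.05 in edgeR. The count of 4 depended on single mice. It fell to 0 without control mouse 1, to 1 without any single ΔETreg mouse or without ΔTreg mouse 1 or 2 and to 2 without ΔLTreg mouse 1, and it was 7 without control mouse 2. No group was large enough to look for single outlying mice.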

How the results depend on the processing

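With 2 control mice and 3 mice per treated group, each comparison with the controls turned on single mice. No paired analysis was possible because the replicate numbers of the groups were given in accession order and pair no mice. The counts of effectors called in ΔETreg against control, ΔTreg against ΔLTreg and ΔTreg against ΔETreg, and the 8 effectors over 2-fold between the control mice, stayed within 1.5 times their value under every alternative run.

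In ΔTreg against control 10 were called under every alternative that left out no control or ΔTreg mouse, and the count ran from 5 to 10 when single mice were left out, with 5 without control mouse 2 and 9 without ΔTreg mouse 1 or 2. In ΔLTreg against control 0 became 7 with no filter beyond 1 count and 2 with DESeq2, and ran from 0 to 1 without single mice. In ΔETreg against ΔLTreg 1 became 10 with no filter beyond 1 count, 2 with sex as a covariate, and 3 with DESeq2 or with the libraries of the 2 groups only, and ran from 0 to 4 without single mice. For the departure from additivity 4 became 9 with no filter beyond 1 count and 7 with sex as a covariate, and ran from 0 (without control mouse 1) to 7 (without control mouse 2) without single mice, with 1 without any single ΔETreg mouse or without ΔTreg mouse 1 or 2. The cause of these moves was not tested.

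Signs turned in ΔETreg against control. Without single mice the log2 change there ran from -1.34 to 0.97 for Ifit1, -1.48 to 0.50 for Ifit3, -0.61 to 0.23 for Irf7, -1.09 to 0.22 for Isg15, -1.33 to 0.74 for Mx1, -0.98 to 0.52 for Oas2, -1.96 to 0.90 for Oas3, -1.08 to 1.33 for Oasl2, -0.27 to 0.94 for Rsad2 and -0.36 to 0.022 for Usp18, the lower bound being that without control mouse 2 and the upper that without control mouse 1, and with sex as a covariate Oasl2 was at 0.014. In ΔLTreg against control Mx1 ran from -0.26 to 1.79 and Oas3 from -0.39 to 2.48, and the departure from additivity of Rsad2 from -0.19 to 1.03. None of these turned values was past the threshold.

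Over all genes, counts of calls moved by more than 1.5 times as well. In ΔETreg against control 1 gene was called, with 54 under no filter beyond 1 count, 10 with DESeq2, 0 under a minimum of 10 counts in every library, with sex as a covariate or with the libraries of the 2 groups only, and 0 to 5 without single mice. In ΔLTreg against control 836 became 1790 with no filter beyond 1 count, 156 with the libraries of the 2 groups only, 297 without control mouse 1 and 373 without control mouse 2. In ΔTreg against control 3946 became 2038 without control mouse 2, and in ΔTreg against ΔLTreg 3096 became 1980 without ΔTreg mouse 1. In ΔETreg against ΔLTreg 1173 became 2173 with no filter beyond 1 count and 556 with the libraries of the 2 groups only, and 572, 346 and 611 without ΔETreg mouse 1, 2 and 3. For the departure from additivity 1004 became 1829 with no filter beyond 1 count, 388 without control mouse 1, 598 without ΔTreg mouse 1 and 630 without ΔETreg mouse 3.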
